A study of Rattus norvegicus with 12 samples.

Results

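Synaptic and signalling effector immediate early genes were described in the striatum of 12 rats. They were *Arc*, *Npas4*, *Homer1*, *Ier2*, *Btg2*, *Sik1*, *Nptx2*, *Rgs2*, *Rgs4* and *Klf4*, selected as a list of symbols, with no cut on a measured value, and all 10 were found among the 17337 gene symbols of the count table. The rats were wild-type male Sprague–Dawley adults that had all self-administered methamphetamine (MA) for 16 days. In 4 of them the striatum was taken after 12 h of abstinence (MA12), and in 4 after 24 h of abstinence (MA24). Another 4 are labelled as non-addicted after the same 16 days, and neither the criterion for that name nor the time from their last session to collection is given in the sources used here. Each library came from the whole striatum of 1 rat. The abstinent rats had been chosen for stable lever pressing, so they stand for animals with steady responding. No rats labelled as taking saline or as killed directly after a session were analysed here. The levels below therefore have no drug-free baseline.

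Immediate early genes are switched on within minutes of synaptic activity, without new protein synthesis, when calcium and cAMP signals reach CREB, SRF and related factors already bound to their promoters. Most of their transcripts are short-lived, and the RNA level of a short-lived one reflects the recent activity of a cell. The genes described here act downstream of that switch: at the synapse (*Arc*, *Homer1*, *Nptx2*), on G protein and kinase signalling (*Rgs2*, *Rgs4*, *Sik1*), or as nuclear and growth regulators (*Npas4*, *Klf4*, *Ier2*, *Btg2*). In the striatum such genes are known to respond to psychostimulants through dopamine and glutamate input to projection neurons.

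The promoters of the members differed in whether they held the letters of a cAMP response element (CRE), the site to which CREB binds. RefSeq sequences of the GRCr8 build, from 250 bases before to 50 bases after the annotated start, were found for 9 of the 10 genes, and none was matched for *Arc*. The counts themselves were made on rn6, so these coordinates belong to the sequences only. All motifs were searched on both strands. The palindromic CRE, TGACGTCA, was present in 2 of the 9 windows (*Btg2* and *Ier2*) and in 1.83% of all 33469 promoter windows. The half-site TGACG, part of every full CRE, was present in 6 of the 9 (also *Sik1*, *Nptx2*, *Rgs2* and *Rgs4*) and in 21.2% of all windows. Counted from the start, *Sik1* held 2 half-sites with first bases at -191 and -180, both read on the opposite strand as CGTCA. The first base of the full CRE was at -66 in *Ier2* and at -201 in *Btg2*. The AP-1 site, searched as TGACTCA and TGAGTCA, was in none of the 9 windows and in 4.63% of all, and the CArG box was in none of the 9 and in 1.64% of all. The TATAAA box, on either strand, was in 3 of the 9 and in 14.2% of all. It lay on the gene's own strand in *Rgs4* alone, at -42, and on the opposite strand in *Homer1* (-223) and *Klf4* (-146 and -78). These matches are descriptions of the letters in one window per gene. The 3 windows below, which hold the full CRE or a pair of half-sites, are shown 5′ to 3′ on the gene's strand, with the CRE letters in capitals.
Btg2 promoter, chr13:48087641-48087940, minus strand: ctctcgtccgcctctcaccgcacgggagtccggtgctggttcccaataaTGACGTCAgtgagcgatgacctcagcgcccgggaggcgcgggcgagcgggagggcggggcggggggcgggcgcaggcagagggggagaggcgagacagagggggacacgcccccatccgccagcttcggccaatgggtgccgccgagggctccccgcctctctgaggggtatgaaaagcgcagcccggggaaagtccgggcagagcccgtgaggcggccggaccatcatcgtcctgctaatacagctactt
Ier2 promoter, chr19:40399123-40399422, plus strand: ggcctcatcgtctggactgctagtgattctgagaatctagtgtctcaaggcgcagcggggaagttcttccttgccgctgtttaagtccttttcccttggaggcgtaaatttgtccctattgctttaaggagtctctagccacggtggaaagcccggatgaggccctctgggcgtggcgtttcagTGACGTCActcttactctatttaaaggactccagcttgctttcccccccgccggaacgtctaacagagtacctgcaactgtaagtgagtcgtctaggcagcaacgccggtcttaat
Sik1 promoter, chr20:9958597-9958896, minus strand: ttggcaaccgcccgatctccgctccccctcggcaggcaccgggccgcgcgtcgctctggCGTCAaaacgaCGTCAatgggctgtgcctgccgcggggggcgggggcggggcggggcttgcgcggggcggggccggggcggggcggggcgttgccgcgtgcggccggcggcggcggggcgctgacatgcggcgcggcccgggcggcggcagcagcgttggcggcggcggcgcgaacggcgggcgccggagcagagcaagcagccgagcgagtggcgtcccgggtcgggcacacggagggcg

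Between 17908962 and 23850284 reads per rat were counted on genes, and the 10 members had between 69 and 11768 counts in each rat. Levels are given as CPM, the usual depth-scaled count, with trimmed mean of M-values (TMM) factors, as mean ± SD of 4 rats, and are compared between rats and groups but not between genes, since transcript length was not removed. The log2FC of each pair of groups comes from edgeR's quasi-likelihood test over all genes of the table, and a DEG had to reach both an FC of 1.5 in either direction and an adjusted p under 0.05. All 10 members passed the filters on low counts and low variance in all 3 comparisons. All 10 markers of striatal projection neurons were detected in each group. Their sum was 15553 to 18660 CPM in non-addicted rats, 15412 to 19625 in MA12 and 18324 to 20293 in MA24. The medians were 16267, 17651 and 19036.5 CPM in the same order. Within MA12 the sum was 15412 and 16059 CPM in rats 21 and 31, and 19243 and 19625 in rats 4N and 7N. The part of these sums in the levels of the members was not tested. The 8 cortical markers summed to 223 to 295 CPM per rat. These sums are of different genes, so they do not measure how much cortex was in the tissue. Markers of endothelial and mural cells summed to 437 to 615 CPM in non-addicted rats, 600 to 770 in MA12 and 681 to 733 in MA24. The sum of 7 choroid plexus and ependymal markers was 31.3 to 77.5 CPM in non-addicted rats, 18.4 to 51.7 in MA12 and 21.3 to 31.4 in MA24. Of these, 6 were tested, with 0 DEGs. Their median log2FC was 0.64 in non-addicted vs. MA12 and 1.12 in non-addicted vs. MA24. The sum of 6 oligodendrocyte markers was 18089 to 21238 CPM in MA24, 12147 to 21721 in MA12 and 11664 to 17294 in non-addicted rats, so MA24 was above the non-addicted rats without overlap. The sum of 5 thalamic markers was 38.3 to 50.01 CPM in MA24, 45.9 to 96.7 in MA12 and 40.1 to 116 in non-addicted rats, and 1 of the 4 tested in MA24 vs. MA12 fell, with a median log2FC of -0.55. Since whole tissue was sequenced, fewer cells of a type and less RNA per cell cannot be told apart. The numbers of all 4 MA24 rats, 2 MA12 rats and 0 non-addicted rats end in N, a mark the sources used here do not explain. In non-addicted vs. MA24 the group and the N therefore cannot be told apart. Since 12 h lay between the abstinence times, length of abstinence and time of day cannot be told apart.

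None of the 10 genes was a DEG in MA24 vs. MA12, in non-addicted vs. MA12 or in non-addicted vs. MA24. Among all genes tested, 2.0% (215 of 10754), 0.102% (11 of 10758) and 0.149% (16 of 10744) were DEGs in these comparisons, so in each of them fewer than 1 of 10 members would be a DEG at the rate of the whole table. These rates rested on single rats: leaving out 1 rat gave from 80 DEGs (without MA24 rat 14N) to 371 (without MA24 rat 9N) in MA24 vs. MA12, from 2 to 53 in non-addicted vs. MA12 and from 0 to 172 in non-addicted vs. MA24. At an unadjusted p below 0.05 there were 3 members in MA24 vs. MA12 (*Homer1*, *Sik1* and *Klf4*), 1 in non-addicted vs. MA12 (*Sik1*) and 2 in non-addicted vs. MA24 (*Homer1* and *Klf4*). Over all genes tested that share was 23.3%, 12.5% and 17.6%, so the members' counts were near the background. DESeq2 and edgeR's likelihood ratio test each gave 1 DEG in MA24 vs. MA12, *Klf4* in both, and 0 in the other comparisons. The groups did not overlap for 1 member in each comparison, against 15.0%, 7.19% and 9.78% of all genes tested. These were *Homer1* in MA24 vs. MA12 and in non-addicted vs. MA24, and *Sik1* in non-addicted vs. MA12. The median log2FC of the members was -0.02 in MA24 vs. MA12, -0.05 in non-addicted vs. MA12 and -0.14 in non-addicted vs. MA24, beside -0.01, -0.01 and 0.01 over all genes tested. The comparisons share groups, so they are not independent of each other.

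**Figure D1:**
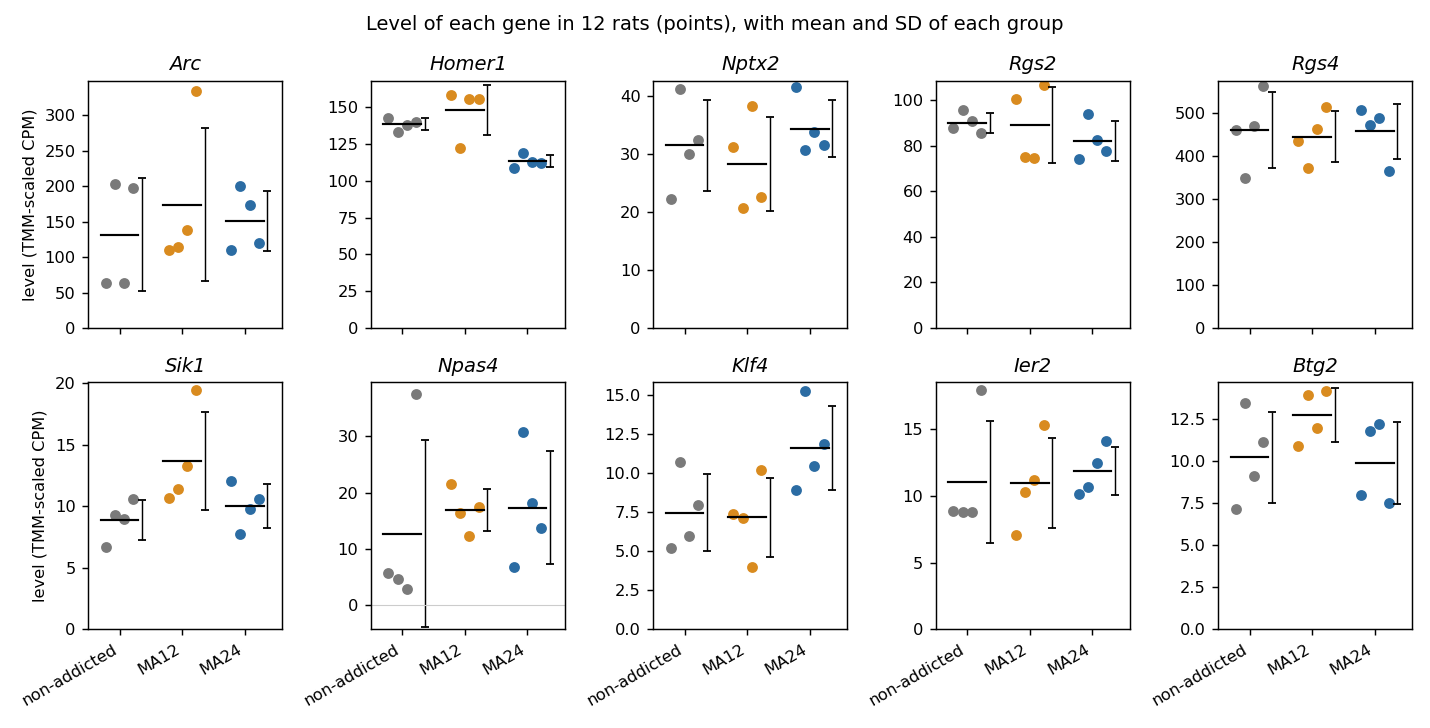
Level of each of the 10 genes (y axis, TMM-scaled CPM, from 0 except where an SD bar reaches below it) in non-addicted, MA12 and MA24 rats. Points are rats, horizontal lines are group means and vertical bars are SD (n = 4), and the scale differs between genes. The 4 MA24 rats lie below all others for *Homer1*, and *Arc* and *Npas4* vary widely within groups.

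*Homer1* encodes a scaffold protein that ties group I metabotropic glutamate receptors to the postsynaptic density, and its activity-induced short form, Homer1a, uncouples that link. Its level was 158, 123, 155 and 156 CPM in MA12 rats 21, 31, 4N and 7N, and 109, 119, 113 and 112 CPM in MA24 rats 9N, 14N, 15N and 16N. In the non-addicted rats 9, 11, 12 and 13 it was 143, 133, 138 and 139.98 CPM. Each MA24 rat was therefore below each of the other 8 rats, while MA12 and non-addicted rats overlapped. Oligodendrocyte marker sums were also apart between MA24 and non-addicted rats, and thalamic ones were lowest in MA24 by their median, 40.1 CPM against 70.4 in MA12 and 54.1 in non-addicted rats. Their part in the *Homer1* values was not tested. The group means were 148 ± 17.0 CPM in MA12, 138 ± 4.09 in non-addicted rats and 113 ± 4.19 in MA24 (SD, n = 4 rats each). The log2FC in MA24 vs. MA12 was -0.36 (SE 0.10, 95% interval -0.57 to -0.15, adjusted p = 0.0544, edgeR quasi-likelihood test), an FC of 0.780 whose size is under the limit of 1.5 whatever its p. In non-addicted vs. MA24 it was 0.27 (SE 0.09, 95% interval 0.08 to 0.45, adjusted p = 0.149, same edgeR test). The exact permutation test, two-sided over the 70 splits of 4 rats against 4, gave 0.0286 for both differences, the smallest p it can give. Between non-addicted and MA12 rats the log2FC was -0.10 (95% interval -0.32 to 0.11). Over 19 alternative fits of MA24 vs. MA12 the adjusted p lay between 0.0138 and 0.141, below 0.05 in 9 of them, and the log2FC between -0.45 and -0.32. With only rats whose number ends in N, 2 of them in MA12, the log2FC was -0.45 (adjusted p = 0.0729, edgeR). With the N of rat numbers as a term of the fit it was -0.45 (adjusted p = 0.111, edgeR). The counts pool all transcripts of the gene, so Homer1a and the long forms were not separated.

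*Arc* encodes a protein that travels to active synapses and promotes the removal of AMPA receptors. Its level was 109, 114, 138 and 334 CPM in MA12 rats 21, 31, 4N and 7N, and 111, 200.3, 173 and 119.9 CPM in MA24 rats 9N, 14N, 15N and 16N. The non-addicted rats fell into a low pair, 63.2 CPM in rat 9 and 63.1 in rat 12, and a high pair, 203 CPM in rat 11 and 198 in rat 13. The low pair was below all 8 abstinent rats and the high pair was above all of them except MA12 rat 7N and, for rat 13, MA24 rat 14N. The group means were 174 ± 107 CPM in MA12, 151 ± 42.8 in MA24 and 132 ± 79.1 in non-addicted rats (SD, n = 4 rats each), differences smaller than the spread. The log2FC was -0.18 (95% interval -0.80 to 0.43) in MA24 vs. MA12, -0.41 (-1.26 to 0.43) in non-addicted vs. MA12 and -0.22 (-0.87 to 0.44) in non-addicted vs. MA24, with adjusted p-values of at least 0.718 (edgeR). Without MA12 rat 7N the sign changed, to 0.36 in MA24 vs. MA12 and 0.12 in non-addicted vs. MA12. These intervals include changes of more than 1.5-fold in MA24 vs. MA12 and in both comparisons of the non-addicted rats, so changes of that size could not be told from 0 at this spread.

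*Nptx2* encodes a secreted neuronal pentraxin that clusters AMPA receptors at excitatory synapses. Its level lay between 20.7 and 38.3 CPM in MA12, between 30.7 and 41.5 CPM in MA24 and between 22.2 and 41.3 CPM in non-addicted rats, and the groups overlapped. MA12 rats 31 and 7N, at 20.7 and 22.7 CPM, and non-addicted rats 9 and 12, at 22.2 and 30.1 CPM, were below every MA24 rat. The log2FC in MA24 vs. MA12 was 0.31 (SE 0.17, 95% interval -0.04 to 0.66, adjusted p = 0.274, edgeR). It was 0.15 in non-addicted vs. MA12 and -0.15 in non-addicted vs. MA24, with adjusted p-values of 0.802 and 0.641 (edgeR).

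*Rgs2* and *Rgs4* encode regulators of G protein signalling, which speed the shut-off of G protein alpha subunits, *Rgs2* mainly on Gq and *Rgs4* on Gi and Gq. Both were among the steadier members. *Rgs2* had 89.1 ± 16.8 CPM in MA12, 82.0 ± 8.61 in MA24 and 89.8 ± 4.39 in non-addicted rats (SD, n = 4 rats each). Within MA12 it took 2 levels, 100.3 and 107 CPM in rats 21 and 7N and 75.1 and 74.4 CPM in rats 31 and 4N. *Rgs4* had 445 ± 59.1, 457 ± 64.0 and 460.5 ± 88.2 CPM in the same order, with MA24 rat 16N at 364 CPM below the 471 to 506 CPM of the other MA24 rats. All 6 log2FC values of these genes lay between -0.09 and 0.11, and their 95% intervals lay between -0.36 and 0.35. No interval of either gene reached the log2 of 1.5 in either direction, which was also so for *Homer1* and *Ier2*.

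**Figure D2:**
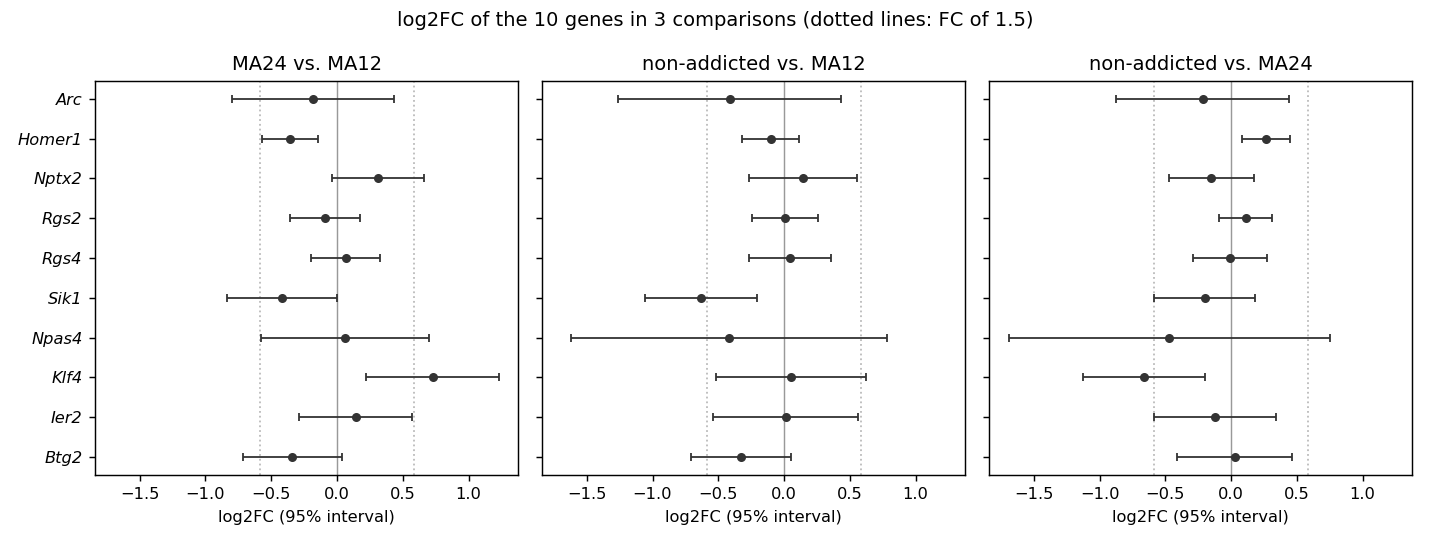
log2FC (x axis) of each gene (y axis) in MA24 vs. MA12, non-addicted vs. MA12 and non-addicted vs. MA24, with 95% intervals from edgeR's quasi-likelihood fit. Dotted lines mark an FC of 1.5 in either direction, and the intervals are narrowest for *Homer1*, *Rgs2* and *Rgs4* and widest for *Arc* and *Npas4*.

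*Sik1* encodes salt-inducible kinase 1, which is induced by cAMP and phosphorylates CRTC coactivators so that they leave the nucleus, a brake on CREB targets. Its level was 10.7, 11.4, 13.3 and 19.4 CPM in MA12 rats 21, 31, 4N and 7N, and 6.67, 9.27, 8.94 and 10.6 CPM in non-addicted rats 9, 11, 12 and 13. Every non-addicted rat was below every MA12 rat, by a narrow margin between non-addicted rat 13 and MA12 rat 21. MA24 rats 9N, 14N, 15N and 16N had 12.0, 7.74, 9.76 and 10.6 CPM and overlapped with both. The log2FC in non-addicted vs. MA12 was -0.63 (SE 0.20, 95% interval -1.05 to -0.21, adjusted p = 0.201, edgeR), with an exact permutation p of 0.0286. When rats with N in their number were dropped, 2 MA12 rats remained and it was -0.28 (adjusted p = 0.695, same edgeR test), and without MA12 rat 7N it was -0.41. In MA24 vs. MA12 it was -0.42 (SE 0.20, 95% interval -0.83 to -6.4e-04, adjusted p = 0.214, edgeR), and it was -0.19 (adjusted p = 0.567, edgeR) without MA12 rat 7N. In non-addicted vs. MA24 it was -0.20 (95% interval -0.59 to 0.18).

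*Npas4* encodes a neuron-specific transcription factor that answers calcium entry and shapes inhibitory synapses, and it had the widest spread of the members. Its level was 5.73, 4.73 and 2.83 CPM in non-addicted rats 9, 11 and 12, from 110, 96 and 69 counts, but 37.5 CPM in non-addicted rat 13, from 720 counts. MA12 rats 21, 31, 4N and 7N had 21.5, 16.3, 12.4 and 17.5 CPM, and MA24 rats 9N, 14N, 15N and 16N had 6.75, 30.7, 18.1 and 13.8 CPM. The first 3 of these non-addicted rats were thus below all 8 abstinent rats, and rat 13 was above them. The log2FC was -0.42 (SE 0.56, adjusted p = 0.807) in non-addicted vs. MA12 and -0.47 (SE 0.58, adjusted p = 0.709) in non-addicted vs. MA24 by edgeR's quasi-likelihood test. The difference of mean log2 CPM, which weighs rat 13 less, was larger, at -1.16 and -1.03, with exact permutation p-values of 0.171 and 0.314. Leaving out each rat in turn showed that 1 rat decided the call: without rat 13 the log2FC was -1.95 (adjusted p = 0.00344, edgeR) against MA12 and -2.01 (adjusted p = 0.00478, edgeR) against MA24, and *Npas4* was a DEG in both. In these fits of 3 rats against 4, 0.492% and 1.60% of all genes were DEGs. Rat 13 carries the same label as the others of its group. Between MA24 and MA12 the log2FC was 0.06 (95% interval -0.58 to 0.70, adjusted p = 0.932, edgeR).

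*Klf4* encodes a Krüppel-like transcription factor that is induced by serum and flow in endothelial cells and by stimuli in neurons and glia. Its level was 8.90, 15.2, 10.5 and 11.9 CPM in MA24 rats 9N, 14N, 15N and 16N, against 7.36, 7.10, 4.00 and 10.2 CPM in MA12 rats 21, 31, 4N and 7N. Only MA12 rat 7N reached into the range of MA24. The non-addicted rats 9, 11, 12 and 13 had 5.21, 10.7, 5.99 and 7.96 CPM. The log2FC in MA24 vs. MA12 was 0.73 (SE 0.24, 95% interval 0.22 to 1.23, adjusted p = 0.0862, edgeR), with an exact permutation p of 0.0571. It was the one member whose FC, 1.66, was past 1.5 in that comparison. It passed both limits with DESeq2 (adjusted p = 0.0379, 3.07% of all genes DEGs), with edgeR's likelihood ratio test (adjusted p = 0.0470, 3.30% of all genes) and without MA12 rat 7N (log2FC 0.96, adjusted p = 0.0319 by the quasi-likelihood test, 2.89% of all genes). It passed neither limit without MA12 rat 4N (log2FC 0.53, adjusted p = 0.145, edgeR) or without MA24 rat 14N (0.57, adjusted p = 0.222, edgeR), and the adjusted p was 0.268 when rat numbers with and without N were a term of the fit. Over 19 alternatives it was below 0.05 in 3. In non-addicted vs. MA24 the log2FC was -0.66 (SE 0.22, 95% interval -1.12 to -0.20, adjusted p = 0.155, edgeR), and in non-addicted vs. MA12 it was 0.05. Vascular marker sums were lower in each non-addicted rat (437 to 615 CPM) than in each MA24 rat (681 to 733 CPM), and overlapped between MA24 and MA12. Among the 11 vascular markers tested, 2 fell and 0 rose in non-addicted vs. MA24, with a median log2FC of -0.35. In non-addicted vs. MA12, where the log2FC of *Klf4* was 0.05, 1 of the 11 fell and their median was -0.51. Over the 12 rats the r of *Klf4* with the vascular sum was 0.22. Their part in the *Klf4* values was not tested.

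*Ier2* and *Btg2* belong to the fast nuclear response to growth factors and activity, *Btg2* as an antiproliferative factor that recruits the CCR4-NOT deadenylase and *Ier2* as a transcriptional regulator. *Ier2* had 11.0 ± 3.40 CPM in MA12, 11.9 ± 1.80 in MA24 and 11.1 ± 4.58 in non-addicted rats (SD, n = 4 rats each). Non-addicted rats 9, 11 and 12 were nearly alike at 8.85, 8.78 and 8.77 CPM, and rat 13 had 18.0 CPM, the highest of all 12. No log2FC of *Ier2* was farther from 0 than 0.14, and the adjusted p-values were at least 0.726 (edgeR). *Btg2* was highest in MA12, with 12.7 ± 1.58 CPM, against 9.89 ± 2.46 in MA24 and 10.2 ± 2.71 in non-addicted rats (SD, n = 4 rats each). Its log2FC was -0.34 (95% interval -0.72 to 0.04, adjusted p = 0.264, edgeR) in MA24 vs. MA12 and -0.33 (95% interval -0.71 to 0.05, adjusted p = 0.479, edgeR) in non-addicted vs. MA12. MA24 rats 9N and 16N, at 8.00 and 7.54 CPM, and non-addicted rats 9 and 12, at 7.13 and 9.14 CPM, were below all MA12 rats, and the other rats of those groups were within the MA12 range.

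The spread among rats of one group was large for most of these genes. The pooled SD of log2 CPM within groups was 1.08 for *Npas4* and 0.74 for *Arc*, above 99.8% and 99.4% of the 10763 genes with a mean count above 50, whose median was 0.16. *Klf4* (0.45), *Ier2* (0.41), *Nptx2* (0.34), *Btg2* (0.32) and *Sik1* (0.31) were above the upper quartile of 0.237. *Rgs4* (0.236) and *Rgs2* (0.18) were above the median, and only *Homer1* (0.11) was below it. Since this SD depends on the count, each was also set among genes whose mean count was within 0.5 of its own on the log2 scale. There *Arc*, *Npas4*, *Nptx2* and *Rgs4* were above 95% of genes, *Rgs2* was at 86.4 and *Homer1* at 51.0. Over all 12 rats the highest level was 13.2 times the lowest for *Npas4*, 5.29 times for *Arc*, 3.81 times for *Klf4* and 1.45 times for *Homer1*. For 4 of the 10 genes the maximum of the 12 rats was in MA12 rat 7N (*Arc*, *Sik1*, *Btg2* and *Rgs2*), and for 3 it was in non-addicted rat 13 (*Npas4*, *Ier2* and *Rgs4*). Non-addicted rat 9 was among the 3 lowest for 6 genes and rat 12 for 5.

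**Figure D3:**
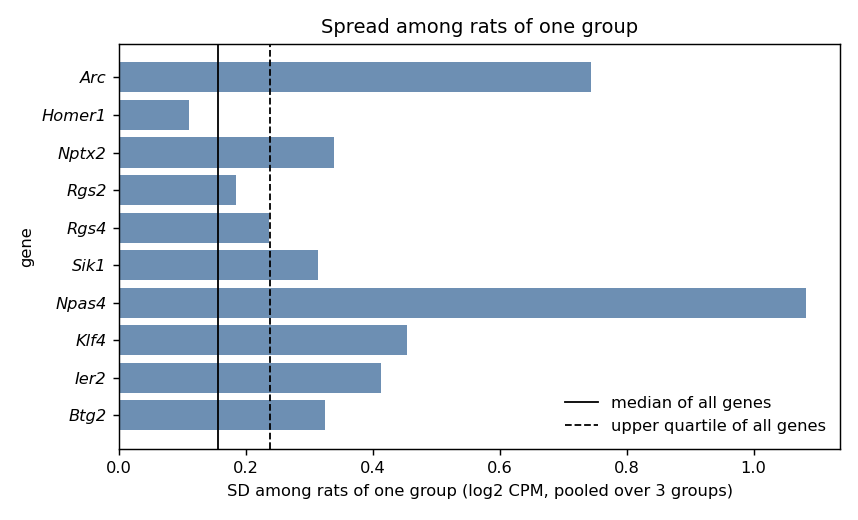
Pooled SD of log2 CPM among rats of one group (x axis) for each gene (y axis), with the median (solid line) and upper quartile (dashed line) of the 10763 genes with a mean count above 50. *Npas4* at 1.08 and *Arc* at 0.74 exceed the rest, and *Homer1* at 0.11 lies below the median of genes of all counts.

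The members varied together in part. After each group was centred on its own mean, 34 of the 45 pairs of members had a positive Pearson r over the 12 rats, with a median of 0.21 and a range from -0.21 to 0.76. The highest values were those of *Arc* with *Btg2* (r = 0.76, Spearman's rho 0.73), *Arc* with *Klf4* (0.71, rho 0.67) and *Rgs2* with *Klf4* (0.71, rho 0.69). Without the 2 rats farthest from the median of the first gene, they were 0.73, 0.49 and 0.47. *Npas4* with *Ier2* had 0.56, which dropped to 0.050 without the 2 rats farthest for *Npas4* and so rested on them. Values also rose: without the 2 rats farthest for *Arc*, *Arc* with *Npas4* went from 0.52 to 0.84. *Arc* with *Ier2* went from 0.61 to 0.71 without the same rats. The 9 pairs with *Nptx2* had values from -0.16 to 0.25. The points are rats that share library depth and TMM scaling, and these values are descriptions with no test. They were not set beside pairs of other genes, so they are not shown to be particular to the members.

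**Figure D4:**
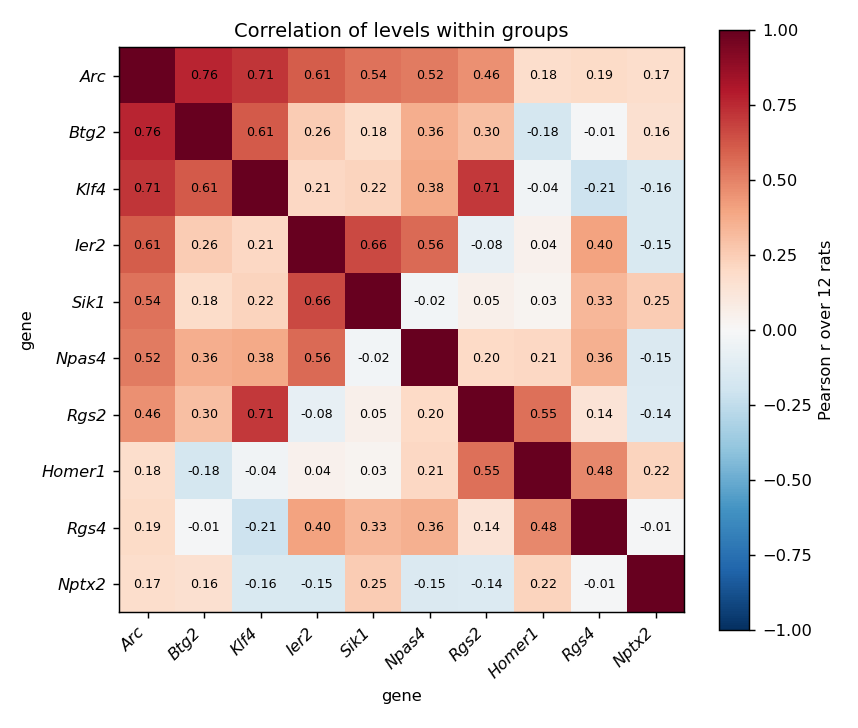
Pearson r of log2 CPM over 12 rats between each pair of genes (both axes), after centring each group on its own mean. Red is positive and blue negative. The highest values are those of *Arc* with *Btg2* (0.76), *Arc* with *Klf4* (0.71) and *Rgs2* with *Klf4* (0.71).

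The genes whose pattern was most like the mean of the 10 members included *Fos*, *Dusp1* and *Junb*. Among the 10755 other genes with a mean count of at least 50, the highest Pearson r over the 12 rats was that of *Dusp1* (0.90), a phosphatase that inactivates MAP kinases, followed by *Fos* (0.87), *Ppp1r15a* (0.86), *Junb* (0.84) and *Arl4d* (0.84). Spearman's rho was between 0.69 and 0.84 for these 5, and r was between 0.77 and 0.87 without non-addicted rat 9 and MA12 rat 7N. After centring each group, *Fos* (0.96), *Dusp1* (0.95), *Junb* (0.93), *Zfp385d* (0.91) and *Arl4d* (0.89) came first, of which *Zfp385d* is not on the list of other immediate early genes. *Fos*, which encodes an AP-1 subunit, had 25.4 CPM in MA12 rat 7N and 20.5 CPM in non-addicted rat 13, against 2.76 and 3.85 CPM in non-addicted rats 9 and 12. On the log2 scale the mean of the members was 0.42 and 0.34 above the mean of all rats in 7N and 13. It was 0.47 and 0.42 below it in 9 and 12. *Fos* was picked for its likeness to that mean, so this agreement follows from the choice. MA24 rat 16N had *Fos* at 2.95 CPM and a member mean of -0.03. The mean of 38 other immediate early genes was 0.37 in 7N, 0.20 in 13, -0.34 in 9 and -0.08 in 12. In non-addicted rat 11 it was 0.36, where the member mean was -0.04. The mean of the members was 0.25 in MA24 rat 14N and -0.13 in MA24 rat 9N, so rats differed within MA24 as well. Of the single members, *Arc* had the highest r with the mean of 38 other immediate early genes (0.83), and *Rgs4* the lowest (0.10). The members were not scaled to equal spread, so *Npas4* and *Arc* weighed most in their mean. The SD over the 12 rats was 1.12 and 0.70 for these, against 0.18 for *Rgs2*. *Arc* by itself had an r of 0.96 with *Dusp1*, 0.90 with *Junb* and 0.87 with *Fos*. None of these was among the 5 genes most like any other single member.

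**Figure D5:**
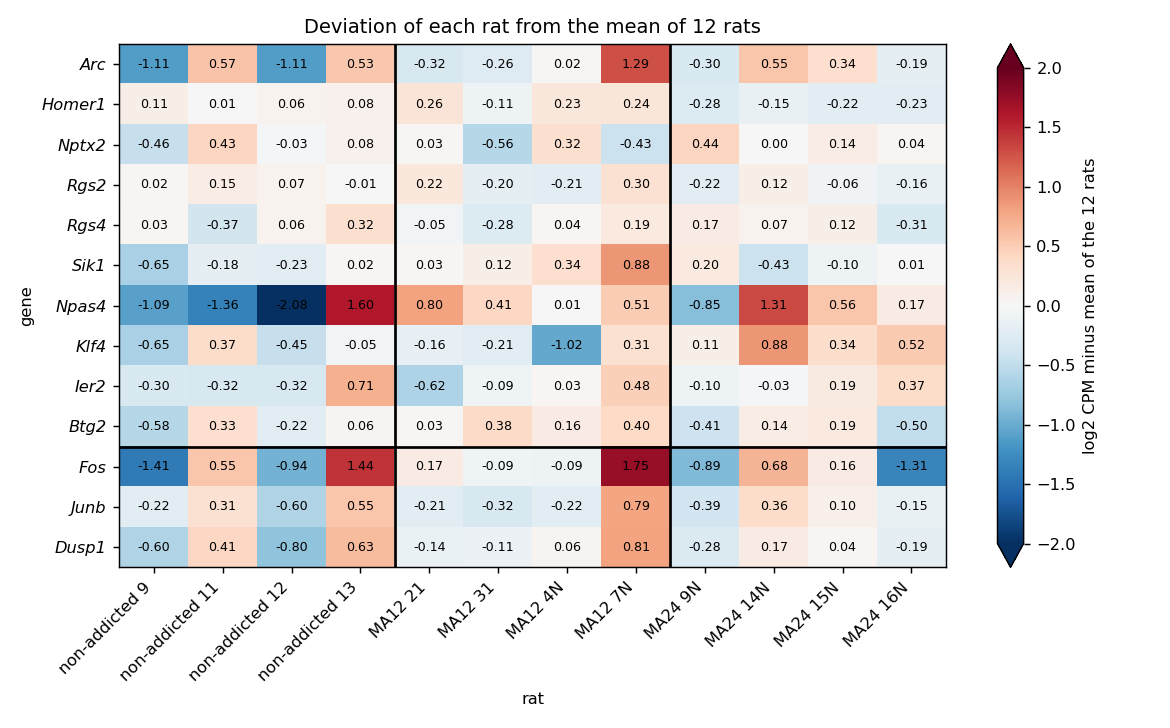
Difference of each rat's log2 CPM from the mean of the 12 rats (colour and printed value), for the 10 genes (rows above the line) and *Fos*, *Junb* and *Dusp1* (rows below it). Columns are rats in the order non-addicted, MA12, MA24, and MA12 rat 7N and non-addicted rat 13 are above the mean for most genes while non-addicted rats 9 and 12 are below it for most.

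Lists of genes around these members held 171 other symbols. In MA24 vs. MA12, 4 of the 138 tested were DEGs, all lower in MA24. This share of 2.9% is near the 2.0% of all genes, and the 39 at an unadjusted p below 0.05 (28.3%) compare with 23.3% of all. *Grm5*, which encodes the metabotropic glutamate receptor 5 bound by Homer proteins, fell by 0.59 on the log2 scale (SE 0.15, adjusted p = 0.0367, edgeR) and was the 1 DEG of 13 partners of *Homer1* and *Arc* that were tested. *Klf7*, a neuronal Krüppel-like factor, fell by 0.93 (SE 0.16, adjusted p = 0.0115, edgeR), as 1 of 17 KLF and BTG family genes. *Rgs5*, an RGS gene that is also a marker of mural cells, fell by 0.69 (SE 0.17, adjusted p = 0.0317, edgeR), as 1 of 20 RGS and G protein genes. *Creb1*, the CRE-binding activator, was the 1 DEG of 19 upstream kinases and factors, with a log2FC of -0.85 (adjusted p = 0.0406, edgeR). The groups did not overlap for *Grm5*, *Klf7* and *Creb1*, and did for *Rgs5*. By DESeq2, *Grm5* missed the FC limit alone (log2FC -0.582, adjusted p = 0.00595), the other 3 were DEGs, and so was *Klf12*. *Grm5* also missed the FC limit alone with RLE factors in place of TMM (-0.582, adjusted p = 0.0428, edgeR). The same was so without MA24 rat 14N (-0.426, adjusted p = 0.0486, edgeR). Over 19 alternatives *Klf7* lost the call in 1, with the N of rat numbers as a term (adjusted p = 0.0649, edgeR), *Creb1* and *Rgs5* in 8 each and *Grm5* in 11. Leaving out MA24 rat 14N, 15N or 16N, or MA12 rat 31, ended the calls of *Grm5*, *Rgs5* and *Creb1*. MA12 rat 21 ended those of *Grm5* and *Creb1*, rat 4N those of *Grm5* and *Rgs5*, and rat 7N that of *Creb1*. Over all 19 alternatives the log2FC stayed between -0.70 and -0.43 for *Grm5*, -0.84 and -0.55 for *Rgs5*, -1.02 and -0.69 for *Creb1* and -1.04 and -0.83 for *Klf7*.

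None of 40 other immediate early genes was a DEG in MA24 vs. MA12 by edgeR's quasi-likelihood test, with 6 at an unadjusted p below 0.05, 3 of them higher and 3 lower, and with *Cyr61* as the 1 DEG by DESeq2. Among 16 delayed activity-regulated genes there were 0 DEGs by the same test, 4 at an unadjusted p below 0.05, all lower in MA24, and 1 by DESeq2 (*Inhba*). The median log2FC of the delayed genes was -0.22, beside -0.01 over all genes tested. Pentraxins and AMPA receptor subunits (7 tested), salt-inducible kinases and their substrates (7 tested) and partners of *Npas4* (6 tested) held 0 DEGs by either tool, with 2, 4 and 0 at an unadjusted p below 0.05. In non-addicted vs. MA12, 0 of 141 tested genes of these lists were DEGs by edgeR, with 26 at an unadjusted p below 0.05 (18.4%, against 12.5% of all genes), and DESeq2 gave *Cyr61*, *Gadd45g* and *Pdyn*. In non-addicted vs. MA24, 0 of 136 were DEGs by edgeR or by DESeq2, with 23 at an unadjusted p below 0.05 (16.9%, against 17.6% of all genes). The KLF and BTG family had the median farthest from that of all genes in this comparison, 0.19 against 0.01.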

How the data were processed

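Striatal poly-A RNA gave paired-end libraries. The authors used Cutadapt 1.18 for trimming, STAR 2.7.0e for alignment (rn6) and featureCounts for counting, and deposited raw counts of 17337 gene symbols without normalization. HTSeq 0.12.4 is also listed among the processing tools of the samples. How strands and reads with several positions were counted is not given in the sources used here, so overlapping genes are uncertain. All 12 columns were grouped by the labels. The 18 pairs of rats from the same group had a chi-square of 9.72 to 28.0 for each degree of freedom, more than counting noise, so each rat is 1 replicate.

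In every comparison a gene needed a mean count over 4 in the 8 rats, and then 15% of genes, those least variable in log2 CPM, were dropped, following the study's filters. TMM-scaled libraries were tested with glmQLFit and glmQLFTest of edgeR 4.0.16 (R 4.3.3) on the 8 rats, with Benjamini-Hochberg adjustment over all genes. SE is the size of the log2FC divided by the square root of F, and 95% intervals use the fit's degrees of freedom. CPM values use TMM factors of all 12 libraries, and log2 CPM a prior count of 2. The procedure was also run on simulated counts for MA24 vs. MA12, with 200 genes changed 2-fold. Its outcome is not given here, so it does not show what could be detected for the members. Named genes were the 10 members, the DEGs of the lists and the 5 genes most like the mean of the members. Genes named from DESeq2 alone and the pairs of members were picked after their values were seen. Alternatives were DESeq2 1.42.0, the likelihood ratio test, RLE factors, 3 changed filters, a fit of the 3 groups together, omission of single rats, and the kind of rat number. TMM before the variance filter and robust estimation were added after the data were seen. The members and gene lists were chosen with earlier results of these data known. Promoters came from RefSeq (GRCr8).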

Additional observations from a re-analysis of the deposited data

Results flagged for a closer look

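Of 30 sets of 4 rats (10 genes in 3 groups), 2 held a rat far from the others by Dixon's ratio, where chance gives 1.5. *Homer1* was low in MA12 rat 31 (ratio 0.924), with 123 CPM against 155 to 158 in the other MA12 rats, and still above every MA24 rat. *Ier2* was high in non-addicted rat 13 (ratio 0.988), with 345 counts against 170 to 214. *Npas4* in non-addicted rat 13 and *Arc* in MA12 rat 7N did not pass the critical value, with ratios of 0.730 and 0.788. No explanation was tested.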

How the results depend on the processing

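The number of members that were DEGs was 0 in each comparison, and ranged from 0 to 1 in each when single rats were left out. In MA24 vs. MA12 it was 1 with DESeq2 and 1 with the likelihood ratio test, *Klf4* in both, and 1 (*Klf4*) without MA12 rat 7N. It was 1 (*Npas4*) in both comparisons of non-addicted rats without rat 13. DESeq2 gave *Npas4* no adjusted p in non-addicted vs. MA12. Under the other alternatives run it was 0. Of the log2FC values under alternatives, 508 kept their sign and side of the thresholds, 5 came to pass them and 37 changed sign, and none of the main values that changed sign was a DEG.

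With only rats whose number ends in N, MA24 vs. MA12 gave -0.16 for *Ier2* and -0.090 for *Rgs4*, and with the kind of number as a covariate -0.15 and -0.082. These fits also moved *Arc* from -0.18 to -0.65 and -0.64, *Sik1* from -0.42 to -0.70 and -0.69, and *Nptx2* from 0.31 to 0.17 and 0.18, and gave 78 and 26 DEGs over all genes in place of 215. In non-addicted vs. MA12, rats without N gave 0.27 for *Arc* and 0.014 for *Homer1*, and the covariate 0.25 for *Arc*. *Rgs4* in non-addicted vs. MA24 was 0.0075 without a filter and also when 10 counts were required of each rat, and 0.010 when low-variance genes were kept or TMM was run before they were dropped. Leaving out single rats moved MA24 vs. MA12 from -0.36 to 0.36 for *Arc*, from -0.37 to 0.33 for *Npas4*, from -0.024 to 0.35 for *Ier2*, from -0.17 to 0.018 for *Rgs2* from -0.013 to 0.16 for *Rgs4*, from 0.19 to 0.50 for *Nptx2* and from -0.53 to -0.19 for *Sik1*. Non-addicted vs. MA12 ran from -0.69 to 0.12 for *Arc*, from -0.33 to 0.22 for *Ier2*, from -0.073 to 0.11 for *Rgs2*, from -0.075 to 0.17 for *Rgs4* and from -0.16 to 0.28 for *Klf4*. Non-addicted vs. MA24 ran from -0.50 to 0.019 for *Arc*, from -0.13 to 0.16 for *Btg2* and from -0.14 to 0.10 for *Rgs4*. Over all genes, settings other than left-out rats gave 26 to 355 DEGs in MA24 vs. MA12, 2 to 91 in non-addicted vs. MA12 and 0 to 150 in non-addicted vs. MA24. The cause was not tested. No paired analysis was possible because the rat numbers name single animals and do not link rats across groups. With 4 rats a group, the spread of *Arc* and *Npas4* limits what could be detected.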
